A study of Homo sapiens with 18 samples.

Results

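The 41 genes described here encode RNA polymerase I subunits, factors that start or support ribosomal DNA transcription, and factors that assemble the small and large ribosomal subunits. They were taken by symbol from a table of 26372 gene symbols: all symbols made of UTP or RRP and a number, the POLR1 subunits A to E, and 19 further named factors. All 41 had a mean of at least 1 FPKM (mapped fragments per unit of transcript length and of library size) over the 18 libraries and entered the test, beside 13785 genes in all. The symbol UTP11L is the older name of UTP11.

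RNA polymerase I transcribes the long precursor of ribosomal RNA in the nucleolus. The growing transcript is bound by the small subunit processome, a particle built around the U3 small nucleolar RNA, and is then cut, modified and folded into pre-ribosomes that are finished in the nucleoplasm and cytoplasm. Production of ribosomes is tied to growth and is high in dividing cells such as those of a neuroblastoma line.

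The libraries came from SH-SY5Y, an established neuroblastoma line of human origin that takes on a neuron-like state under differentiation. The cells were infected with lentiviruses made from the FUGW plasmid that carried ZNHIT3, a zinc-finger protein linked by the series title to the assembly of small nucleolar ribonucleoproteins. The constructs were wild-type ZNHIT3 (ZNHIT3-WT), ZNHIT3-C14R, and a ZNHIT3 deletion. The deletion is labelled ∆251-254, ∆251-255 or ∆251-256 in replicates 1, 2 and 3 of each day, and the design text names ∆251-254 only, so the deletion groups may not hold a single construct. RNA was sampled at day 0 and day 18, with 3 libraries in each of the 6 groups of construct and day. Differentiation was induced 48 hours after infection in serum-free medium that held all-trans retinoic acid at 10 µM, BDNF at 50 ng/ml, dibutyryl cyclic AMP at 2 mM and KCl at 20 mM. No source used here says that the cells' own ZNHIT3 gene was removed, and no group without a ZNHIT3 construct was included. Nothing states whether replicate libraries came from separate cultures, so the p-values measure only the spread between these libraries, which may be technical.

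ZNHIT3 stood at 531 to 542 FPKM in the WT libraries of day 0, at 419 to 432 in C14R and at 292 to 310 in the deletion. At day 18 it stood at 1103 to 1193, 600 to 756 and 294 to 313 FPKM. These values are for the gene symbol and do not separate RNA of the construct from that of the cells' own gene. The FPKM values give no absolute depth; the relative depth was 59.1% to 85.9% of the deepest library at day 0 and 81.8% to 100% at day 18. Replicate 1 of C14R at day 18 stood apart: it was the highest of the 9 day 18 libraries for 15 of the 41 genes and the lowest for 8. Without it, 37 in place of 38 of the 41 genes passed as lower at day 18 in C14R.

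From day 0 to day 18 the group fell almost as a whole. In WT, 36 of the 41 genes were lower at day 18 and 1, UTP14C, was higher, at an adjusted p under 0.05 (limma on log2(FPKM + 1), Benjamini-Hochberg over all genes tested). Among all genes tested, 34.0% were called lower and 38.2% higher in WT. In C14R, 38 of the 41 were lower and UTP14C higher, beside 35.0% and 37.9% of all genes. In the deletion, 37 were lower and UTP14C higher, beside 34.4% and 38.6% of all genes. The median log2 change of the 41 was -0.68 in WT, -0.68 in C14R and -0.67 in the deletion, and the median of all genes tested was 0.03, 0.02 and 0.03. The middle 50% of all genes in WT lay between -0.35 and 0.41, so the median member lay below that band.

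The counts depended on how the libraries were scaled. The deposited FPKM summed to 987600 to 2222000 per library at day 0 and to 553500 to 989600 at day 18. Their upper quartile varied little, from 10.89 to 11.05 and from 11.09 to 11.26. With small RNA genes left out and the rest rescaled to equal sums, the median of all genes moved up to 0.21 in WT, 0.18 in C14R and 0.23 in the deletion. The rescaled sums still held the ribosomal protein genes, whose summed FPKM in WT had a median of 121700 at day 0 and 66140 at day 18. Their part in this upward move was not tested. The higher share of all called genes then rose from 52.9% to 68.6% in WT, from 52.0% to 66.4% in C14R and from 52.8% to 69.5% in the deletion. The 41 genes shifted with the rest, to medians of -0.49, -0.50 and -0.46, and 31, 34 and 32 of them were still called lower. Relative to all genes the median member lay at -0.70 in WT, -0.69 in C14R and -0.69 in the deletion under this scaling, and at -0.71, -0.70 and -0.70 with the values as deposited.

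A fall of at least 2-fold on the log2(FPKM + 1) scale was rarer. It was passed by 8 of the 41 genes in WT, beside 6.79% of all genes. The same rule was passed by 8 in C14R, beside 6.64%, and by 9 in the deletion, beside 6.74%. BOP1, NOB1, POLR1B, RRP1B and UTP20 passed it in all 3 lines, which is 5 of 41 beside 5.46% of all genes. Only 2, 2 and 1 of the 41 passed it after the rescaling without small RNA genes, beside 649, 653 and 621 of 13772 genes. Under that scaling the share of the 41 was near or under that of all genes. In WT, 5 passed it without replicate 3 of WT at day 18. In C14R, 6 passed it without replicate 1 of C14R at day 18.

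The order of the changes was alike in the 3 lines. Across the 41 genes the log2 changes in WT and C14R had a Pearson r of 0.963, those in WT and the deletion 0.974, and those in C14R and the deletion 0.975; across all genes tested the same values were 0.970, 0.969 and 0.971. The lines share no libraries, and these correlations across genes describe the data without a test. In all, 36 of the 41 genes were called lower in each of the 3 lines, beside 29.7% of all genes. For 34 of the 41 genes all 9 day 18 libraries lay below all 9 day 0 libraries, beside 26.9% of all genes. The exceptions were BMS1, NOP9, RRP36, RRP7A, UBTF, UTP14C and UTP23.

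**Figure D1:**
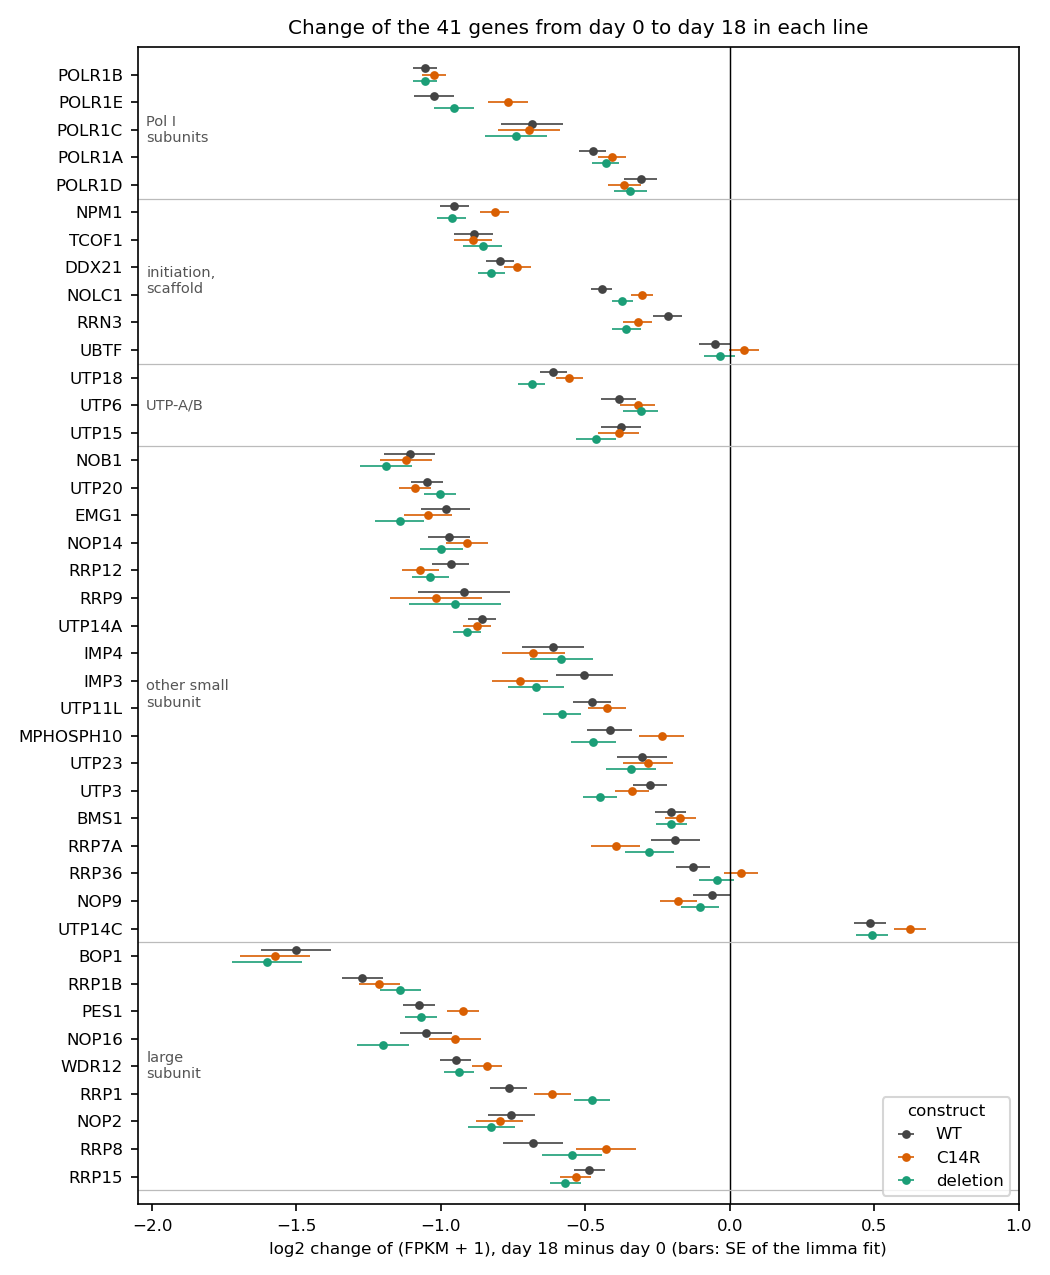
Log2 change of each of the 41 genes from day 0 to day 18 in WT, C14R and deletion libraries, on the log2(FPKM + 1) scale, ordered by role; points are the fitted change and bars its standard error (3 libraries per group). Changes run from -1.60 for BOP1 in the deletion to 0.62 for UTP14C in C14R, and UBTF, RRP36 and NOP9, which lie nearest to 0, move above 0 in WT when small RNA genes are left out and the rest rescaled.

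The 5 measured POLR1 genes, which encode polymerase I subunits, all fell in each line. POLR1B, the second largest subunit and part of the catalytic core, was at 31.1, 31.1 and 34.2 FPKM in the WT libraries of day 0 and at 15.1, 15.2 and 14.6 at day 18. Its changes of -1.05 ± 0.04 (SE) in WT, -1.02 in C14R and -1.06 in the deletion differed by 0.03 at most, the smallest range among the 41 genes together with TCOF1. It had the smallest adjusted p of the 41 in each line (limma, 2.90e-13 in WT). POLR1E, a subunit of the heterodimer found only in polymerase I, dropped to 47.1% of its day 0 mean FPKM in WT, 57.0% in C14R and 49.6% in the deletion.

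POLR1C and POLR1D encode subunits shared with RNA polymerase III. POLR1C went from 15.9 ± 0.70 to 9.59 ± 1.46 FPKM in WT (SD, n = 3), a log2 change of -0.68. POLR1D, from 72.1 ± 2.66 to 58.1 ± 3.70 FPKM, had a change of -0.31, the smallest of the 5 subunits, and was no longer called in WT or the deletion (adjusted p = 0.11 and 0.0502, limma) after the rescaling without small RNA genes. POLR1A, the largest subunit, went from 16.9 ± 0.13 to 11.9 ± 0.33 FPKM in WT, a change of -0.48. The polymerase subunits thus fell by unequal amounts, with POLR1B and POLR1E at the 2-fold mark in WT and POLR1A and POLR1D well short of it.

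Of the 6 initiation factors, scaffolds and chaperones, 5 fell in each line and UBTF did not pass in any. NPM1, an abundant chaperone of the outer layer of the nucleolus, had the highest mean of the 41, 502 FPKM. It stood at 691, 639 and 663 FPKM in WT, 661, 623 and 643 in C14R and 635, 671 and 665 in the deletion at day 0. By day 18 NPM1 stood at 338, 344 and 346 FPKM in WT, 399, 342 and 357 in C14R and 328, 337 and 345 in the deletion. Every day 18 library was below every day 0 library, and the highest of the day 18 values was in replicate 1 of C14R. The log2 changes of NPM1 were -0.95 ± 0.05 (SE), -0.81 and -0.96 (adjusted p = 1.56e-11, 1.37e-10 and 1.30e-11, limma), and without that library the C14R change was -0.88.

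TCOF1 encodes treacle, which links polymerase I transcription with early pre-ribosomal RNA processing. It fell from 28.2 ± 1.04 to 14.8 ± 1.03 FPKM in WT (SD, n = 3), by 0.89 on the log2 scale. DDX21, a nucleolar RNA helicase and the second most abundant of the 41 with a mean of 89.1 FPKM, went from 114 ± 3.02 to 65.1 ± 3.33 FPKM in WT, a change of -0.79. NOLC1, also called Nopp140, is a chaperone that binds small nucleolar ribonucleoproteins, and its change was smaller, from 73.8 ± 1.10 to 54.0 ± 1.44 FPKM in WT.

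RRN3 and UBTF act in bringing the polymerase to ribosomal DNA. RRN3, which bridges polymerase I to the promoter-bound initiation factors, went from 29.1 ± 0.59 to 24.9 ± 0.81 FPKM in WT, a change of -0.22 (adjusted p = 0.000933, limma), and of -0.32 and -0.36 in C14R and the deletion. The WT call was lost after the rescaling without small RNA genes (-0.01, adjusted p = 0.821), and the table also holds 3 RRN3 pseudogene symbols between which reads could have been divided. UBTF, the architectural protein that covers active ribosomal DNA, was at 26.1, 24.1 and 23.4 FPKM in WT at day 0 and at 23.5, 23.1 and 24.1 at day 18. In C14R it stood at 23.8, 26.5 and 23.6 and then 26.2, 25.9 and 24.4 FPKM, and in the deletion at 24.1, 25.4 and 26.2 and then 24.6, 25.4 and 23.9. The days overlapped in each line, and the log2 changes of UBTF were -0.05, 0.05 and -0.03 (adjusted p = 0.384, 0.417 and 0.565, limma). With small RNA genes left out and the rest rescaled they were 0.15, 0.23 and 0.18, all 3 past the threshold (adjusted p = 0.0219, 0.00118 and 0.00751).

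The processome's early-binding subcomplexes were represented by UTP15 of UTP-A and UTP6 and UTP18 of UTP-B, all 3 of which fell in each line. After the rescaling without small RNA genes the call of UTP6 in the deletion was lost (-0.096, adjusted p = 0.171, limma). UTP18 had the largest change of the 3 in WT, from 38.0 ± 0.41 to 24.6 ± 1.42 FPKM in WT (SD, n = 3), a log2 change of -0.61. UTP6 and UTP15 changed by -0.39 and -0.38 in WT. The median of the 3, -0.39 in WT, was the smallest in size among the 5 roles.

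Among the 18 other small subunit factors, 14 fell and 1 rose in WT, 16 fell and 1 rose in C14R, and 15 fell and 1 rose in the deletion. NOB1, the endonuclease that makes the final cut of the small subunit ribosomal RNA, fell most in WT. It stood at 15.8, 15.5 and 17.6 FPKM in WT, 16.1, 17.9 and 17.4 in C14R and 18.0, 18.1 and 18.9 in the deletion at day 0. By day 18 its values were 8.13, 7.52 and 5.62 FPKM in WT, 7.66, 6.96 and 7.38 in C14R and 7.22, 7.92 and 7.30 in the deletion. All day 18 values of NOB1 were well below all day 0 values, with the lowest in replicate 3 of WT. The changes were -1.11 ± 0.09 (SE), -1.12 and -1.19 on the log2 scale (adjusted p = 4.95e-09, 4.24e-09 and 1.87e-09, limma).

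Other late or structural factors of the small subunit fell by similar amounts. UTP20, a large scaffold of the processome, was at 44.6% of its day 0 mean FPKM in WT, 43.2% in C14R and 46.1% in the deletion. EMG1, a methyltransferase of the small subunit ribosomal RNA, was at 49.0%, 46.7% and 43.5%. NOP14 stood at 48.0%, 50.4% and 47.1%, and RRP12, which takes part in export of pre-ribosomes, at 48.3%, 44.3% and 45.8%. RRP9, a protein of the U3 ribonucleoprotein, was at 48.0%, 45.1% and 48.1%, but with a mean of 7.48 FPKM its SE of 0.16 was the largest of the 41 genes.

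The Mpp10 complex, which joins U3 to the pre-ribosomal RNA, fell as well. IMP4 changed by -0.61 in WT, IMP3 by -0.50 and MPHOSPH10 by -0.42, all past the threshold. In C14R the change of MPHOSPH10 was -0.24 (adjusted p = 0.012, limma), and it was no longer called after the rescaling without small RNA genes (-0.06) or without replicate 3 of C14R at day 18 (-0.17, adjusted p = 0.0718). UTP11L changed by -0.48 in WT, UTP23 by -0.30, UTP3 by -0.27 and the GTPase BMS1 by -0.21. The WT calls of UTP23, UTP3 and BMS1 were lost after that rescaling, at changes of -0.11, -0.07 and -0.01. Those of UTP23 and BMS1 in C14R and the deletion were lost too (-0.11 and -0.14 for UTP23, 0.004 and 0.006 for BMS1). The call of BMS1 in C14R was also lost without replicate 3 of C14R at day 18 (adjusted p = 0.0517, limma) and in a fit of only the libraries compared (adjusted p = 0.0676). The table also holds 7 BMS1 pseudogene symbols, so how reads were divided among these copies is uncertain.

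RRP7A, RRP36 and NOP9 did not pass in WT. RRP36, the fifth highest of the 41 by mean FPKM, stood at 47.5, 43.0 and 42.5 FPKM in WT, 40.7, 39.0 and 39.2 in C14R and 47.3, 42.7 and 43.7 in the deletion at day 0. The day 18 values were 41.3, 41.0 and 39.1 FPKM in WT, 39.6, 43.3 and 39.5 in C14R and 46.0, 44.3 and 39.3 in the deletion, so that the days overlapped in C14R and in the deletion. Its log2 changes were -0.13, 0.04 and -0.05 (adjusted p = 0.0643, 0.561 and 0.496, limma). With small RNA genes left out and the rest rescaled the changes of RRP36 were 0.077, 0.22 and 0.17, past the threshold in C14R and the deletion (adjusted p = 0.246, 0.00258 and 0.0148). In WT, RRP36 was called lower under median-of-ratios scaling (-0.18, adjusted p = 0.0141), quantile normalization (-0.17, 0.0167), the replicate block (-0.13, 0.0339) and a fit of only the libraries compared (-0.13, 0.0475), and without replicate 3 of WT at day 0 (-0.16, 0.0469). NOP9 changed by -0.06 in WT and -0.10 in the deletion (adjusted p = 0.402 and 0.165) and by -0.18 in C14R (adjusted p = 0.0209), a call lost without replicate 1 of C14R at day 18 (-0.13, adjusted p = 0.0901) or replicate 3 of C14R at day 0 (adjusted p = 0.053), and after the rescaling (-0.01, adjusted p = 0.892). Its change in the deletion was called under median-of-ratios scaling (-0.15, adjusted p = 0.0409). RRP7A, the least abundant of the 41 with a mean of 4.21 FPKM, changed by -0.19 in WT (adjusted p = 0.056) and was called in C14R at -0.40 and in the deletion at -0.28. The change of RRP7A in WT was called under median-of-ratios scaling (-0.23, adjusted p = 0.0224) and quantile normalization (-0.24, 0.0113) and without replicate 3 of WT at day 0 (-0.24, 0.0368), and its call in the deletion was lost after the rescaling without small RNA genes (-0.099, adjusted p = 0.298).

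The UTP14 pair moved in opposite directions. UTP14A (chrX:129906121-129929761 on GRCh38, GENCODE release 29) encodes the processome protein that activates the helicase DHX37, and UTP14C (chr13:52024691-52033600, plus strand) is its retrotransposed copy. UTP14A stood at 33.8, 31.5 and 34.1 FPKM in WT, 34.3, 32.9 and 32.5 in C14R and 35.6, 33.2 and 34.5 in the deletion at day 0. The day 18 libraries held UTP14A at 18.5, 18.2 and 16.8 FPKM in WT, 18.0, 18.2 and 16.8 in C14R and 17.9, 18.2 and 17.5 in the deletion. UTP14A thus lost nearly as much in each line, with log2 changes of -0.86 ± 0.05 (SE), -0.88 and -0.91.

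UTP14C stood at 14.9, 14.3 and 15.1 FPKM in WT, 13.6, 14.5 and 13.8 in C14R and 14.4, 13.9 and 13.9 in the deletion at day 0. By day 18 UTP14C was at 20.1, 20.7 and 22.5 FPKM in WT, 24.1, 21.2 and 21.0 in C14R and 19.5, 20.9 and 20.4 in the deletion. It was the single gene of the 41 whose 9 day 18 libraries all lay above its 9 day 0 libraries, as did 29.8% of all genes. The log2 changes of UTP14C were 0.48 ± 0.06 (SE), 0.62 and 0.49 (adjusted p = 4.10e-07, 1.56e-08 and 3.24e-07, limma). The ratio of UTP14C to UTP14A ran from 0.397 to 0.455 over the day 0 libraries and from 1.08 to 1.34 over the day 18 libraries. The sum of both genes went from between 45.8 and 50.0 FPKM to between 37.5 and 42.1.

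How reads were divided between the UTP14 pair is uncertain. The coding sequence of UTP14C matched that of UTP14A at 94.8% of 2295 aligned positions, and the longest run without a difference was 169 bases. Of 1991 windows of 90 bases along the alignment, 5.42% held no difference and the median window held 4. The following stretch of both coding sequences (GENCODE release 29 transcripts) shows how alike the pair is to a read, with capitals at the positions where they differ.
UTP14A, coding bases 81 to 170: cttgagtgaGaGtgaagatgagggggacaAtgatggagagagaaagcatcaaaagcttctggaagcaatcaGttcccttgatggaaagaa
UTP14C, coding bases 78 to 167: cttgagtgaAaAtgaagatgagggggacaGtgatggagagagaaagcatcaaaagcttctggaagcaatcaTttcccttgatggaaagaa
UTP14C also shares 4100 of its 5529 exonic bases, on the same strand, with ALG11, which encodes a glycosylation enzyme of the endoplasmic reticulum. ALG11 stood at 10.2 to 11.6 FPKM in the day 0 libraries and at 12.9 to 16.5 in those of day 18. The part of ALG11 reads in the rise of UTP14C was not tested.

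**Figure D2:**
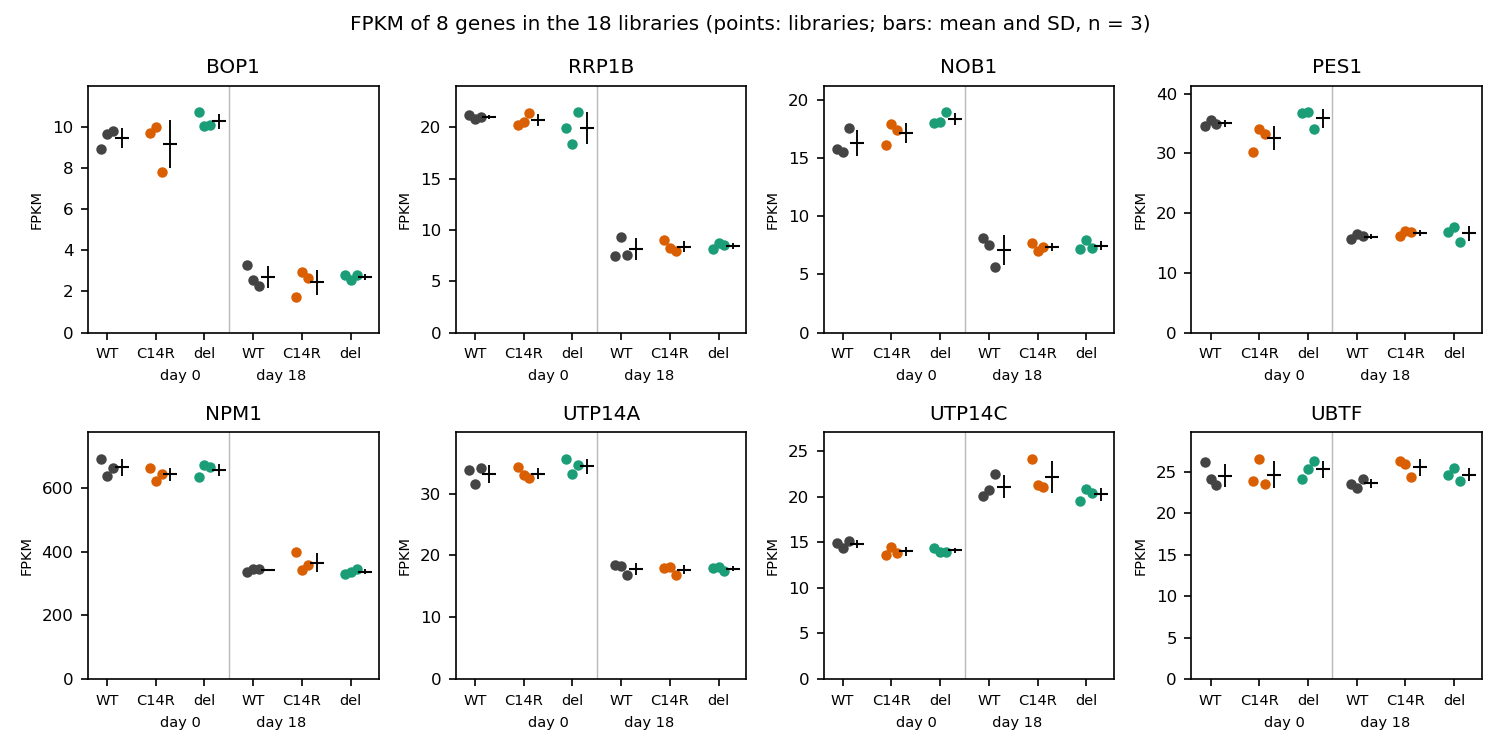
FPKM of BOP1, RRP1B, NOB1, PES1, NPM1, UTP14A, UTP14C and UBTF in each of the 18 libraries by construct (del, deletion) and day; points are libraries and black bars the mean and SD of 3 libraries, on linear axes that start at 0. All day 18 points lie below all day 0 points for the first 6 genes, all lie above for UTP14C, and the days overlap for UBTF.

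All 9 large subunit factors fell in each line, and their median change of -0.95 in WT was the largest in size of the 5 roles. BOP1, PES1 and WDR12 form the PeBoW complex, which is needed for maturation of the large subunit ribosomal RNAs. BOP1 stood at 8.93, 9.66 and 9.82 FPKM in WT, 9.68, 10.0 and 7.81 in C14R and 10.7, 10.0 and 10.1 in the deletion at day 0. Its day 18 values were 3.30, 2.57 and 2.27 FPKM in WT, 1.74, 2.93 and 2.64 in C14R and 2.78, 2.56 and 2.82 in the deletion. BOP1 thus fell to 28.7%, 26.6% and 26.5% of its day 0 mean FPKM, the largest fall of the 41 in each line. The log2 changes were -1.50 ± 0.12 (SE), -1.57 and -1.60 (adjusted p = 5.21e-09, 2.83e-09 and 2.19e-09, limma).

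The other members of PeBoW fell less than BOP1 on the same scale. PES1 stood at 34.5, 35.6 and 35.0 FPKM in WT, 30.3, 34.2 and 33.2 in C14R and 36.8, 36.9 and 34.1 in the deletion at day 0. After differentiation PES1 was at 15.7, 16.5 and 16.1 FPKM in WT, 16.1, 17.0 and 16.9 in C14R and 16.9, 17.8 and 15.2 in the deletion. Its 9 values of day 18 spanned less than 3 FPKM and lay far below those of day 0. The log2 changes of PES1 were -1.08 ± 0.06 (SE), -0.92 and -1.07, and those of WDR12 -0.95 ± 0.05, -0.84 and -0.94. PES1 and WDR12 thus remained at 45.9% and 50.3% of their day 0 means in WT, where BOP1 remained at 28.7%. The difference between the 3 genes was not tested.

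RRP1 and RRP1B are paralogues with nucleolar roles in large subunit assembly, and they differed in how much they fell. RRP1B stood at 21.2, 20.8 and 21.0 FPKM in WT, 20.2, 20.5 and 21.4 in C14R and 20.0, 18.4 and 21.5 in the deletion at day 0. By day 18 RRP1B was at 7.51, 9.34 and 7.60 FPKM in WT, 8.98, 8.21 and 7.92 in C14R and 8.17, 8.76 and 8.51 in the deletion. The days were far apart in each line. The log2 changes of RRP1B were -1.27 ± 0.07 (SE), -1.21 and -1.14 (adjusted p = 3.43e-11, 6.74e-11 and 1.48e-10, limma). Those of RRP1 were -0.77 ± 0.06, -0.61 and -0.48, the widest range over the 3 lines of any of the 41 genes.

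NOP16, NOP2, RRP8 and RRP15 made up the rest of the large subunit factors. NOP16 went from 44.3 ± 2.27 to 21.0 ± 2.57 FPKM in WT (SD, n = 3) and changed by -1.05, -0.95 and -1.20 in the 3 lines. NOP2, a methyltransferase of the large subunit ribosomal RNA, changed by -0.76 in WT, and RRP8, a nucleolar methyltransferase, by -0.68. RRP15 had the smallest change of the 9 in WT, -0.49.

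The same direction was seen in related genes outside the 41. Of 36 further small subunit factors 34 fell in WT and none rose, with a median change of -0.76; FBL, the methyltransferase of box C/D particles, went from 93.2 to 24.9 FPKM (mean of 3 WT libraries each), RCL1 from 16.4 to 5.28 and BYSL from 15.2 to 5.71. Of 38 further large subunit factors 34 fell and 1, SBDS, rose, with a median of -0.66; NOC3L (-1.61), MYBBP1A (-1.56) and MRTO4 (-1.30) fell most. Of 15 other polymerase I and initiation factor genes 12 fell and 1 rose, with a median of -0.36. POLR2H (-0.85), ZNRD1 (-0.69) and TAF1C (-0.56) fell most, and POLR2K, a subunit shared by all 3 polymerases, rose by 0.21 on the log2 scale.

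The RNA exosome, which trims ribosomal RNA precursors, fell in 11 of 14 genes in WT and rose in none, with a median of -0.45 and the largest falls in EXOSC5 (-1.74), EXOSC2 (-1.38) and EXOSC4 (-1.21). Among 83 tested genes of cytosolic ribosomal proteins all 83 fell in WT, 80 in C14R and 83 in the deletion. Their median change in WT was -0.83. RPS27L (-1.93), RPL22L1 (-1.91) and RPLP0 (-1.76) fell most. This list was taken by symbol and includes paralogues of the standard ribosomal protein genes, such as RPS27L and RPL22L1.

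**Figure D3:**
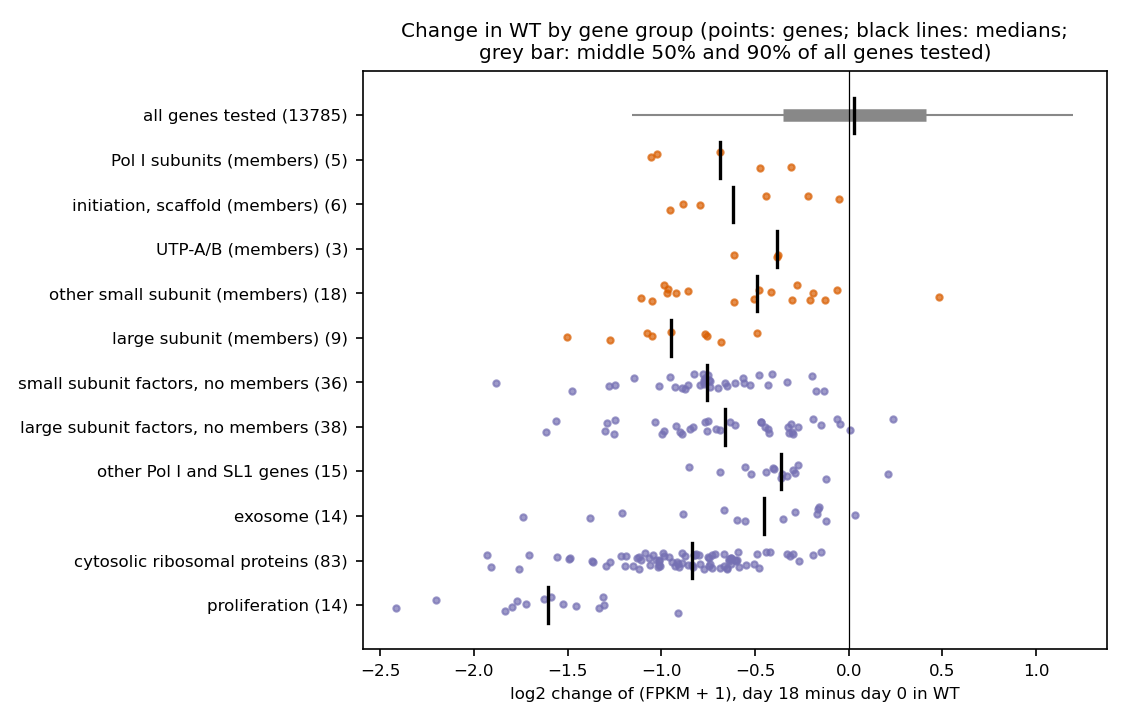
Log2 change from day 0 to day 18 in WT, on the log2(FPKM + 1) scale, of the 41 genes by role, of related gene lists and of 14 proliferation genes; points are genes, black lines medians, and the grey bars at the top span the middle 50% and 90% of all 13785 genes tested. The medians run from -0.36 for other polymerase I genes to -1.60 for the proliferation genes, beside 0.03 for all genes.

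Markers of cell state moved between the days as well. All 14 proliferation genes, among them TYMS, RRM2 and CCNB1, fell in each line, with medians of -1.60 in WT, -1.42 in C14R and -1.47 in the deletion. At day 0 their summed level ranged over 600.2 to 616.8 FPKM in WT, 607.5 to 617.6 in C14R and 575.1 to 586.5 in the deletion. At day 18 the ranges were 200 to 206 FPKM in WT, 212 to 259 in C14R and 211 to 219 in the deletion. All 14 were still above 0 in each group. All 8 tested neuronal markers rose in each line, and the ninth, RBFOX3, stayed near 0 (means of 0.19 and 0.23 FPKM in WT). Summed neuronal markers stood at 812 to 866 FPKM over the day 0 libraries and at 1827 to 2117 over those of day 18.

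Of 7 markers of the substrate-adherent, mesenchymal-type cells that SH-SY5Y cultures can hold, the 5 that were tested all fell in each line. Their sum went from between 642 and 802 FPKM at day 0 to between 59.2 and 65.7 at day 18, and PRRX1 was listed at 0 in the WT libraries of day 18. Sympathetic markers of the line were present, with PHOX2A, HAND2, GATA3 and ISL1 between 57.4 and 278 FPKM in WT at day 0, while TH was near 0 (mean of 0.04 FPKM). In WT, PHOX2A and DBH, the enzyme that makes noradrenaline, rose by log2 changes of 0.68 and 2.78, and GATA3 had a change of -0.47, each past the threshold. HAND2 and ISL1, at -0.03 and 0.09, did not pass it. The part of these shifts in cell state in the fall of the 41 genes was not tested. In these bulk samples, fewer cells of a type and less RNA per cell cannot be told apart.

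The comparison of the constructs asks whether the ZNHIT3 variants changed the level of these genes. At day 0 none of the 41 genes passed the threshold in C14R against WT, where limma called 0.0% of all genes, or in the deletion against WT, where it called 0.029%. At an unadjusted p under 0.05, 1 of the 41 was counted in C14R, beside 1.3% of all genes for rises and 1.52% for falls, and 0 in the deletion, beside 3.16% and 3.06%. The 1 was RRP36, which was lower in C14R by 0.16 on the log2 scale with a 95% interval of the change from -0.28 to -0.03 (limma, adjusted p = 1). Its 3 C14R values, 39.0 to 40.7 FPKM, lay below its 3 WT values, 42.5 to 47.5 FPKM. In the deletion the smallest p was that of NOB1, whose 18.0 to 18.9 FPKM lay above 15.5 to 17.6 in WT (log2 difference 0.16, 95% interval -0.03 to 0.35, adjusted p = 0.809).

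Groups without overlap were counted at day 0 as well. In C14R, 2 of the 41 genes (4.88%) lay wholly above WT (NOP9 and RRP7A), beside 4.14% of all genes. Wholly below were 4 (9.76%: NOP14, PES1, RRP36 and UTP11L), beside 5.33%. In the deletion 5 (12.2%) lay wholly above WT (BOP1, IMP3, NOB1, RRN3 and RRP12), beside 8.68%, and 1 (2.44%) wholly below (POLR1E), beside 9.28%. The shares of the 41 were above those of all genes except for falls in the deletion, but they rest on few genes and were not tested.

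At day 18 none of the 41 passed either. In C14R against WT limma called 0.0363% of all genes. At an unadjusted p under 0.05, NOLC1, POLR1E and RRP8 were higher, beside 5.36% of all genes, and RRN3 was lower, beside 5.77%. NOLC1 stood at 61.7, 59.8 and 56.6 FPKM in C14R and at 52.7, 55.5 and 53.6 in WT, with no overlap and with replicate 1 highest in C14R. Its log2 difference was 0.14 with a 95% interval from 0.06 to 0.21 (limma, adjusted p = 0.165), and it was 0.11 without that replicate (adjusted p = 0.238). POLR1E stood at 12.5, 14.2 and 13.4 FPKM in C14R and at 11.6, 11.4 and 10.3 in WT, a difference of 0.25 (95% interval 0.10 to 0.39, adjusted p = 0.165). RRP8 stood at 7.09, 6.26 and 6.60 FPKM in C14R against 5.44, 6.17 and 4.51 in WT, a difference of 0.27 (95% interval 0.05 to 0.49, adjusted p = 0.334).

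In the deletion at day 18, where 0.0725% of all genes were called, the smallest p belonged to RRP1. It stood at 9.67, 9.89 and 9.04 FPKM in the deletion, at 7.77, 8.89 and 8.54 in C14R and at 7.85, 7.94 and 6.91 in WT. The deletion values were all above those of both other constructs. The log2 difference of RRP1 from WT was 0.30 with a 95% interval from 0.16 to 0.44 (limma, adjusted p = 0.102). It passed, at an adjusted p of 0.0428, when replicate 1 of C14R at day 18 was left out of the shared estimate of the spread, although that library is in neither group. RRP1 was the only one of the 41 at an unadjusted p under 0.05 in this comparison, beside 5.77% of all genes for rises and 5.67% for falls.

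Without overlap at day 18, 4 of the 41 genes were higher in C14R than in WT (NOLC1, POLR1E, RRP8 and UBTF), beside 5.44% of all genes, and 1 was lower (RRN3), beside 5.64%. In the deletion 1 was higher (RRP1), beside 10.4%, and 2 were lower (RRP15 and UTP3), beside 8.53%. These shares are near or under those of all genes, apart from the genes above WT in C14R.

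The differences between constructs were small beside the change between days. The 95% intervals of the 41 genes had a median half-width of 0.14 on the log2 scale in each comparison with WT. The most extreme bounds were -0.40 and 0.33 in C14R and -0.31 and 0.47 in the deletion at day 0. At day 18 they were -0.50 and 0.49 in C14R and -0.35 and 0.44 in the deletion. A difference between constructs of 1 log2 unit was therefore outside all of these intervals, whereas differences within them were not resolved. The median difference over the 41 genes was 0.02 at most in size in each of these 4 comparisons.

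**Figure D4:**
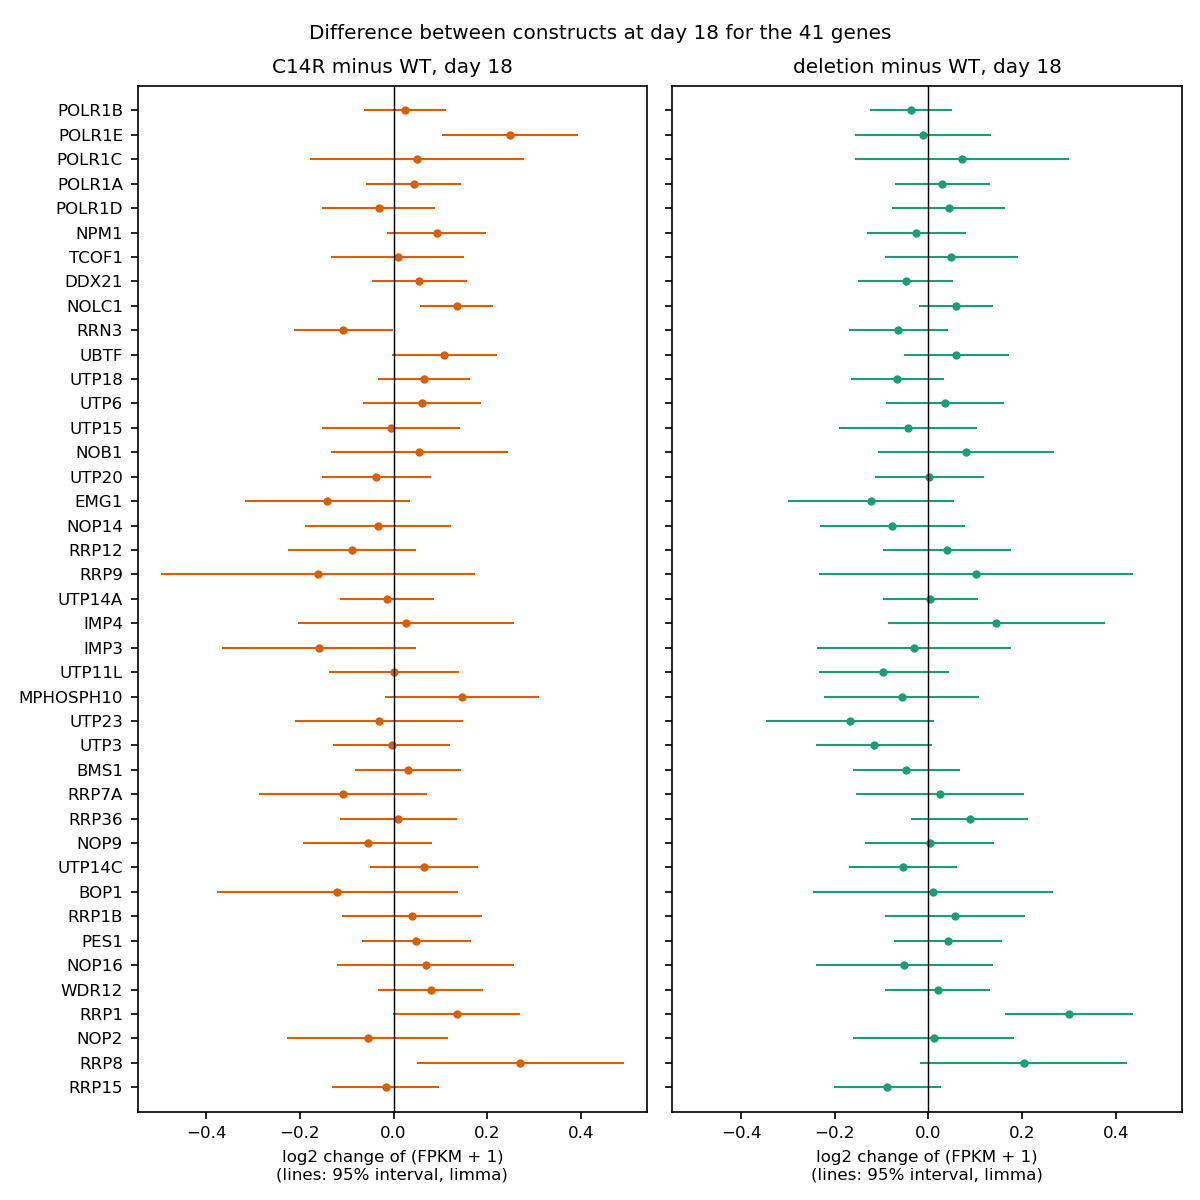
Log2 difference of each of the 41 genes between C14R and WT (left) and between the deletion and WT (right) at day 18, on the log2(FPKM + 1) scale; points are the fitted differences and lines their 95% intervals (3 libraries per group). No difference passed the threshold, and the largest is that of RRP1 in the deletion, 0.30 (95% interval 0.16 to 0.44).

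Whether the fall between days differed by construct was tested with the interaction of construct and day. None of the 41 genes passed for C14R, where limma called 0.0% of all genes, or for the deletion, where it called 0.0145%. At an unadjusted p under 0.05 the fall was smaller in C14R for NOLC1, by 0.14 (95% interval 0.03 to 0.25, adjusted p = 0.751), and POLR1E, by 0.26 (0.05 to 0.46, adjusted p = 0.771), beside 2.99% of all genes in that direction and 2.74% in the other. In the deletion it was smaller for RRP1, by 0.29 (95% interval 0.10 to 0.48, adjusted p = 0.46), beside 3.5% of all genes, and 3.86% in the other direction. The intervals had a median half-width of 0.19.

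Markers of cell state and ribosomal protein genes were compared with WT at day 18 as well, and none passed the threshold. All 14 proliferation genes were above WT in C14R, with a median log2 difference of 0.17 and 9 of 14 higher at an unadjusted p under 0.05. In the deletion 11 of 14 were above WT, with a median of 0.10 and 2 at that p. All 8 neuronal markers tested were above WT in C14R (median 0.10, 4 at that p), and 7 of 8 in the deletion (median 0.07, 2 at that p). Of 5 mesenchymal-type markers, 4 were below WT in each variant, with 2 lower at that p in each and 1 higher in C14R. Of 83 ribosomal protein genes, 22 were higher and 4 lower at that p in C14R, and 12 higher and 1 lower in the deletion. Among all genes tested, 5.36% were higher and 5.77% lower at that p in C14R, and 5.77% and 5.67% in the deletion. Summed, the proliferation genes stood at 200 to 206 FPKM in WT, 212 to 259 in C14R and 211 to 219 in the deletion, with the highest value in replicate 1 of C14R. The summed level of the 41 genes stood at 1038 to 1055 FPKM in WT, 1062 to 1129 in C14R and 1037 to 1048 in the deletion. The part of these lists in the differences of NOLC1, POLR1E, RRP8 and RRP1 was not tested.

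Since most of the 41 genes moved together, their promoters were searched for shared motifs. RefSeq promoter sequences on GRCh38.p14 were at hand for 33 of the 41, and the 250 bases before the annotated start were searched on both strands for CACGTG (the E-box bound by MYC and related factors), CCGGAAG (the core bound by ETS factors), the palindromic NRF1 motif, GGGCGG (bound by SP1), TATAAA (the TATA box) and CCAAT (bound by NF-Y). CACGTG was found in 4 of the 33 (12.1%), beside 6.35% of all 35116 promoters and 8.71% of those of tested genes. CCGGAAG was found in 9 of the 33 (27.3%), beside 8.52% of all promoters and 15.9% of those of tested genes. The GC content was alike, with a median of 61.6% for the 33 and 65.2% for the tested genes.

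Of the other motifs, that of NRF1 was in 2 (6.06%, beside 1.03% of all promoters and 1.98% of those of tested genes). GGGCGG was in 20 (60.6%, beside 42.6% and 67.0%), CCAAT in 7 (21.2%, beside 32.0% and 35.3%) and TATAAA in 1 (3.03%, beside 10.7% and 5.22%). A match is a run of letters in this window and not a shown binding site.

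Windows of 60 bases around a match are printed 5′ to 3′ on the strand of the gene, with the motif in capitals, for the members whose window lies outside all exons of GENCODE release 29. Of the CACGTG matches these were UTP20, which fell by 1.05 on the log2 scale in WT, UTP14A, which fell by 0.86, and UTP18, which fell by 0.61.
UTP20, chr12:101280045-101280104, plus strand: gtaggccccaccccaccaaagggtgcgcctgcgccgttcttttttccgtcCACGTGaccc
UTP14A, chrX:129905914-129905973, plus strand: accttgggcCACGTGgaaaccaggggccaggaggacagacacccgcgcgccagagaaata
UTP18, chr17:51260430-51260489, plus strand: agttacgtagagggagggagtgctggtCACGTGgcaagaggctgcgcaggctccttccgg
Of the CCGGAAG matches these were RRP9, which fell by 0.92 in WT, UTP18, in a second window, and RRP36. The changes of RRP36 in the 3 lines were -0.13, 0.04 and -0.05 and did not pass. The CACGTG window of UTP18 also ends in the reverse complement of CCGGAAG, printed there in lower case. The windows of the other CCGGAAG matches, in DDX21, EMG1, NOP16, POLR1B, POLR1C and UTP3, held bases of annotated exons and are not printed. So did the CACGTG window of IMP4. For NOP16, POLR1C and IMP4 all 60 bases lay in exons.
RRP9, chr3:51942095-51942154, minus strand: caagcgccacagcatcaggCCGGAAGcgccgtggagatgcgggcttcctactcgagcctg
UTP18, chr17:51260343-51260402, plus strand: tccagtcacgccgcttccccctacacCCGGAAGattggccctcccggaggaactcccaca
RRP36, chr6:43021556-43021615, plus strand: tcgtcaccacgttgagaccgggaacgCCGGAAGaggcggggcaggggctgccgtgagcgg
The 4 members with CACGTG had a median change of -0.73 in WT and the 29 without it -0.50; among tested genes the medians with and without it were -0.04 and 0.02. For CCGGAAG the medians were -0.80 for the 9 members with it and -0.50 for the 24 without it, beside -0.09 and 0.04 among tested genes. For GGGCGG they were -0.65 with it and -0.50 without it, beside 0.03 and -0.01. For the NRF1 motif they were -0.86 and -0.61, beside -0.01 and 0.02. The 1 member with TATAAA changed by -1.05, beside a median of -0.61 without it (0.035 and 0.016 among tested genes). CCAAT went the other way in the members, at -0.61 with it and -0.68 without it, beside 0.01 and 0.02. These are descriptions of small sets without a test, and CCGGAAG occurs in RRP9, which fell, and in RRP36.

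Overlapping genes touch many members. In GENCODE release 29, 22 of the 41 overlap another gene, 20 of them a gene on the opposite strand, and the use of strand in counting was not given in the sources used here. Of the 19 members without such an overlap, 18 fell in WT, with a median change of -0.68, the same as for all 41.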

How the data were processed

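Libraries of rRNA-depleted total RNA were made with the NEBNext Ultra kit after TRIzol extraction and DNase I treatment, per the labels' protocols. The authors deposited 1 table of FPKM, with a value per gene symbol and a column per library named by its sample title; 0 columns lacked a sample. Per the submitters' processing notes, TopHat2, STAR, Cufflinks 2.2.1 and the build hg38 were used; their roles, the annotation and the use of strand are not given in the sources used here. Of 26372 symbols, 4960 were at 0 in all libraries. FPKM hold no counts, so only the relative depth of libraries could be read, from the steps of low values.

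Here, log2(FPKM + 1), with a pseudocount of 1, was fitted for the 13785 genes with a mean of at least 1 FPKM with limma 3.58.1 in R 4.3.3: 6 group means over all 18 libraries, empirical Bayes with a trend, and Benjamini-Hochberg adjustment over all genes tested, at a threshold of 0.05. Fold changes on this scale understate those of low genes. The comparisons were day 18 against day 0 in each line, each variant against WT at each day, and each variant's interaction with day. The fit was tested on simulated data. Libraries correlated at 0.994 at most, so none was taken as a repeat.

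The 41 genes, the lists of related genes and markers, and the tests were chosen with earlier results of these data known. Values per library were printed for the 4 largest falls and the rise in WT, the gene with the highest mean, and the smallest p in each comparison of constructs; UTP14A, UBTF, POLR1B, POLR1E and RRP8 were added after their values were seen. From each list of related genes the 3 largest falls or rises could be named. Annotation came from GENCODE release 29 (GRCh38) and promoters from RefSeq, matched by symbol. Alternatives tried were no filter or a mean of at least 5 FPKM, a pseudocount of 0.1, median-of-ratios scaling, quantile normalization, rescaling without 2375 small RNA symbols, a replicate block, a fit of only the libraries compared, and each library left out in turn. Some marker results are not reported here.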

Additional observations from a re-analysis of the deposited data

How the results depend on the processing

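Counts of called genes among the 41 were within 1.5 times those reported under a pseudocount of 0.1, no filter, a mean of at least 5 FPKM, median-of-ratios scaling, quantile normalization and only the libraries compared. Genes called lower at day 18 then numbered 36 to 38 in WT, 37 to 38 in C14R and 36 to 38 in the deletion. With small RNA genes left out and the rest rescaled, 2, 3 and 3 genes were called higher in WT, C14R and the deletion. Among all 13772 genes then tested, 7061, 6802 and 7199 were called higher. Of the 41, 2, 2 and 1 fell by at least 2-fold, beside 649, 653 and 621 of all genes. Under that rescaling the change of NOP9 was 0.13 in WT and 0.10 in the deletion, that of RRP36 0.077 and 0.17, that of UBTF 0.15 and 0.18, and that of BMS1 0.004 in C14R and 0.006 in the deletion, all reversed. RRP36 in C14R was at 0.00 under median-of-ratios scaling and at -0.028 under quantile normalization.

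Leaving out each library in turn gave 36 to 38 genes called lower in WT, 36 to 38 in C14R and 37 in the deletion, with 5 to 10, 6 to 9 and 9 to 10 of at least 2-fold. The 5 came without replicate 3 of WT at day 18. The count of genes higher in the deletion than in WT at day 18 was 0 to 1, with RRP1 the 1. The sign turned for NOP9 in WT, from -0.109 to 0.025 (0.025 without replicate 3 of day 18), for RRP36 in C14R, from -0.003 to 0.063 (-0.003 without replicate 2 of day 18), and for RRP36 in the deletion, from -0.092 to 0.019 (0.019 without replicate 3 of day 18), none of them called. The causes were not tested.

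No clear pairing by replicate number was seen: of 21 same-numbered pairs, 4 had deviations that correlated above 0.1, and 8 matched their own number best. With 3 libraries per group these correlations cannot exclude a pairing, and the deletion labels follow the replicate number on both days. With the replicate block, 37, 38 and 37 genes were called lower at day 18 in WT, C14R and the deletion, and 0 in each comparison of constructs and each interaction. RRP36 in WT was then called (adjusted p = 0.0339).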
